A study of Micropterus salmoides with 68 samples.

Results

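Levels of 7 red blood cell genes of largemouth bass (Micropterus salmoides) were followed here. They were hbae5, cahz, hemgn, rhd, sptb, ank1a and phospho1, out of 18666 genes in the deposited table of liver and spleen expression. The genes were chosen by name as a set typical of red cells, at a time when their values in these libraries were already known. Every level and difference given for them is therefore a description with no test. Tests are given only for other genes, whose lists were also chosen with earlier results of these data known. All 7 genes reached the filter of 1 TPM (transcripts per 1000000, a level already corrected for transcript length) in at least 3 libraries of each tissue.

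The study followed fingerlings through a 4 h journey by car, with 125 fish in a box holding 30 L of aerated water, and through 1 to 5 days of recovery in indoor tanks in a room at 28 °C. Liver and spleen each gave 34 libraries, with 4 per group, or 3 per group at day 3. The groups of each tissue were fish taken from the pond by net before transport, fish at the end of transport, fish after 1 day of recovery, and fish labelled normal or abnormal after 3, 4 and 5 days. The signs by which a fish was labelled normal or abnormal are not defined in the labels. All groups share netting, and those after the first also share crowding, transport and, during recovery, a lack of food. No fish kept untransported were analysed here, so that transport, time, fasting and the change of tank cannot be told apart. The fish were killed in MS-222, an anaesthetic, and total RNA was depleted of ribosomal RNA before sequencing. Strain, age and sex are not given in the labels, and neither is the fish from which a liver and a spleen of the same number came.

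Fish red blood cells keep their nucleus and go on carrying RNA in the circulation, so a bulk sample of any tissue with blood in it holds red cell transcripts. The spleen of fish stores red cells, releases them under stress and clears old ones, while most new red cells come from the head kidney. A red cell is packed with haemoglobin, exchanges carbon dioxide with the help of carbonic anhydrase and anion exchangers, and keeps its shape through a skeleton of spectrin tied to the membrane by ankyrin. In bulk samples, fewer cells of a type and less RNA per cell cannot be told apart.

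Some libraries stood apart. Spleen library 3 of day 1 carried 27.4% of its TPM in rps3a and 12.1% in rps4x, both genes of ribosomal proteins, against at most 3356 and 3234 TPM in the other spleen libraries, which lowers every other gene in that library on the TPM scale. Spleen library 4 of day 1 held the highest cahz, sptb and ank1a of all spleen libraries, and liver library 4 from before transport the highest sptb and ank1a of all liver libraries. Some of the differences that rest on them are given with and without them. The genes rps3a and rps4x were singled out after their values were seen. The liver label was matched by 21 hepatocyte genes, which summed to 92233 to 198623 TPM in the liver libraries of the before, normal and abnormal groups and to 209 to 6156 TPM in the spleen libraries of those groups. By the end of transport, 18 of those 21 genes had risen in the spleen, where 5.23% of all genes rose, and their sum reached 1314 to 7100 TPM there.

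In the spleens of fish labelled abnormal, all 7 red cell genes stood far above those of fish labelled normal on days 3 to 5, where 1.63% of all genes tested lay higher in every abnormal than in every normal spleen. In liver 6 of the 7 did so without any overlap of libraries, where 9.33% of all genes did. For hbae5, the haemoglobin gene of the set, the spleens of normal fish lay below those from before transport, and the spleens of abnormal fish overlapped them. For hemgn, rhd, sptb, ank1a and cahz, the abnormal spleens also lay wholly above the spleens from before transport. After 1 day of recovery the same 5 genes were already high in the spleen, before any fish carried the label normal or abnormal.

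The gene hbae5, named after a zebrafish embryonic alpha globin, encodes a haemoglobin chain and was by far the most abundant of the 7. In the spleen, the 4 libraries from before transport held 35337, 71664, 41595 and 31026 TPM of hbae5, and the 4 from the end of transport 40874, 79498, 39139 and 76884 TPM. On day 1 the spleens held 143167, 148386, 20673 and 88791 TPM, the lowest of these being the library rich in rps3a. These 3 groups overlapped, with means of 44906 ± 18359, 59099 ± 22083 and 100254 ± 59506 TPM (SD, n = 4). The day 1 spleens differed from those before transport by 0.89 on the log2 scale (SE 0.69), and by 1.78 (SE 0.77) without libraries 3 and 4.

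From day 3 on, the spleens split by label. Spleens of normal fish held 2956, 8275 and 2441 TPM of hbae5 on day 3, 836, 2470, 631 and 2487 TPM on day 4, and 5002, 1793, 3850 and 431 TPM on day 5. Spleens of abnormal fish held 116184, 26841 and 98053 TPM on day 3, 120855, 83901, 32625 and 60048 TPM on day 4, and 134804, 50884, 44604 and 66477 TPM on day 5. The highest normal library lay below the lowest abnormal library and also below every spleen from before transport. The mean of log2(TPM + 1) was 4.95 higher in abnormal than in normal spleens (SE 0.42, 30.8-fold, n = 11 each), and normal spleens differed from those before transport by -4.29 (SE 0.57, 19.5-fold lower). Abnormal spleens differed from those before transport by 0.66 (SE 0.57), a difference close to its standard error.

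Liver held less hbae5 but showed the same split. The livers from before transport held 4901, 7352, 4166 and 2016 TPM, those at the end of transport 7949, 4912, 6180 and 6275 TPM, and those of day 1 3754, 19444, 3734 and 8432 TPM. Livers of normal fish held 389, 196 and 293 TPM on day 3, 311, 166, 223 and 462 TPM on day 4, and 674, 239, 615 and 103 TPM on day 5. Livers of abnormal fish held 2174, 3924 and 1092 TPM on day 3, 5007, 3036, 2599 and 2040 TPM on day 4, and 2623, 1454, 917 and 1349 TPM on day 5. No normal liver reached the lowest abnormal liver or the lowest liver from before transport. The log2 difference between abnormal and normal livers was 2.86 (SE 0.32, 7.24-fold), and normal livers differed from those before transport by -3.84 (SE 0.44, 14.4-fold lower). Abnormal livers differed from those before transport by -0.99 (SE 0.44), or -1.34 without liver library 4 from before transport, with overlapping libraries. Globin genes form a family of near copies among which the counting may divide reads, so the level of a single one is uncertain.

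Ordered by mean log level in the spleen, hbae5 ran from day 1 through abnormal day 3, day 5 and day 4, the end of transport and before transport down to normal day 3, day 5 and day 4. Of the 8 pairs of neighbours in that order, only before transport and normal day 3 did not overlap. In liver the order was day 1, the end of transport, before transport, abnormal day 4, day 3 and day 5, then normal day 5, day 3 and day 4, and only abnormal day 5 and normal day 5 did not overlap. The 7 genes together made up 3.13% to 7.20% of all TPM in the spleens from before transport, 0.0454% to 0.846% in normal spleens and 2.76% to 13.6% in abnormal spleens.

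**Figure D1:**
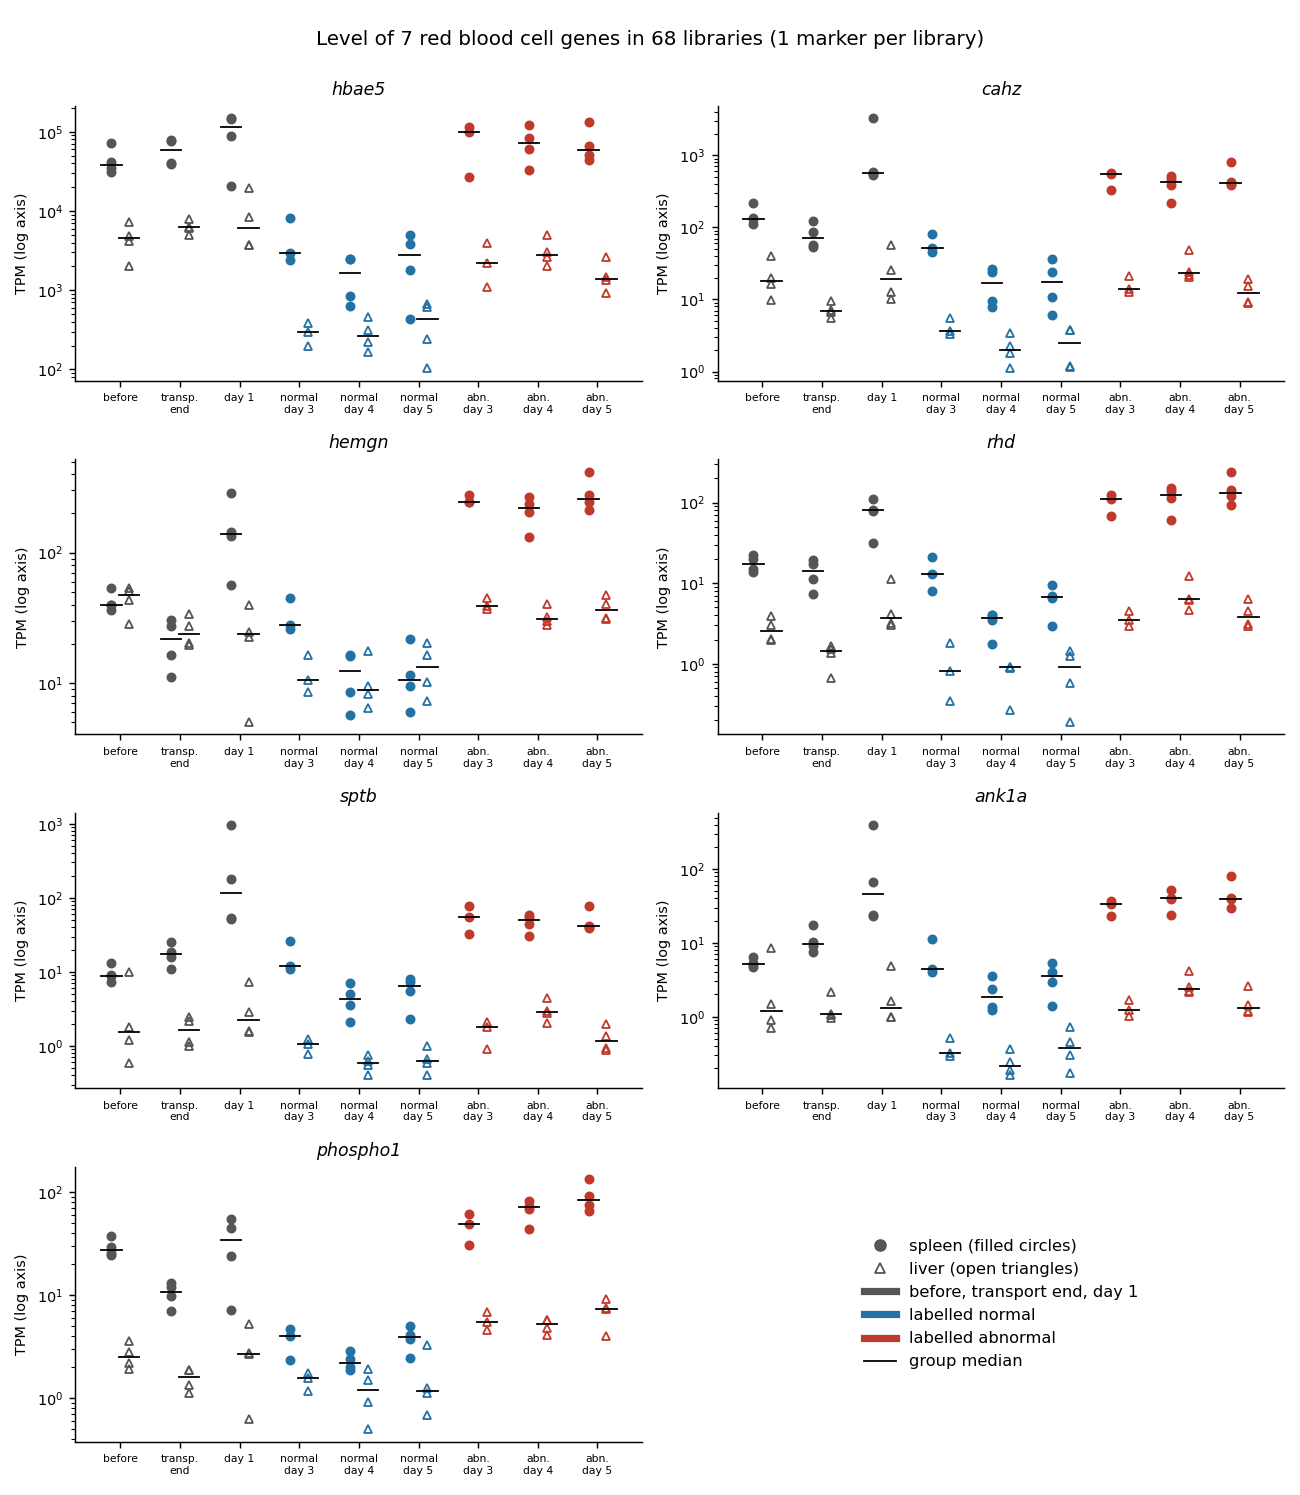
Level of each of the 7 genes in TPM on a log axis, with 1 marker per library (filled circles for spleen, open triangles for liver), short bars at group medians, and the groups from before transport to day 5 along the x axis. Spleens labelled normal (blue) lie below all spleens labelled abnormal (red) in each panel; for hbae5 their ranges are 431 to 8275 TPM and 26841 to 134804 TPM.

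The gene cahz encodes the carbonic anhydrase of zebrafish red cells, the enzyme that interconverts carbon dioxide and bicarbonate. Spleens from before transport held 111, 215, 129 and 134 TPM of cahz, and those at the end of transport 57.6, 86.3, 52.7 and 123 TPM. On day 1 the spleens held 587, 558, 537 and 3269 TPM, all above every library of the earlier groups, a log2 difference from before transport of 2.60 with all libraries and 2.00 without libraries 3 and 4. Normal spleens ran from 6.10 to 79.7 TPM with a median of 24.3, and abnormal spleens from 219 to 797 TPM with a median of 422 (n = 11 each), with no overlap. The difference between them was 4.15 on the log2 scale (SE 0.31, 17.7-fold).

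In liver, cahz stood at 9.81, 16.6, 19.9 and 40.4 TPM before transport and at 9.61, 6.71, 7.16 and 5.58 TPM at the end of transport, so that no liver at the end of transport reached the lowest from before. On day 1 the livers held 12.8, 57.2, 10.2 and 25.8 TPM, again within the range from before transport or above it. Normal livers ran from 1.11 to 5.45 TPM and abnormal livers from 8.87 to 48.4 TPM, a difference of 2.33 (SE 0.26, 5.01-fold).

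The gene hemgn encodes hemogen, a nuclear protein of developing blood cells. Its levels in the tissues were close before transport: the spleens held 39.5, 53.2, 39.5 and 36.0 TPM and the livers 43.6, 28.2, 51.2 and 53.3 TPM, a spleen to liver ratio of 0.954 with overlapping libraries. At the end of transport the spleens held 16.3, 30.6, 11.2 and 27.6 TPM, all below the spleens from before transport. By day 1 they held 145, 135, 56.9 and 285 TPM, all above them (1.66, or 1.72 without libraries 3 and 4). Normal spleens then ran from 5.67 to 45.0 TPM with a median of 16.1, and abnormal spleens from 133 to 417 TPM with a median of 246, a difference of 3.88 (SE 0.24, 14.7-fold). In liver, day 1 did not lie above the level before transport, with 22.7, 40.0, 5.04 and 24.8 TPM of hemgn, and the gap between normal livers (6.47 to 20.2 TPM) and abnormal livers (27.8 to 47.1 TPM) was smaller, at 1.61 (SE 0.24, 3.06-fold). Abnormal livers lay within the range of the livers from before transport or just below it, whereas abnormal spleens lay 2.53 above the spleens from before transport (SE 0.33).

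The gene rhd belongs to the Rh blood group family of membrane proteins. Spleens from before transport held 15.2, 22.3, 19.9 and 13.7 TPM and those of day 1 held 81.7, 80.0, 31.8 and 110 TPM, with no overlap (1.93, or 2.15 without libraries 3 and 4). Normal spleens ran from 1.78 to 20.9 TPM and abnormal spleens from 61.8 to 242 TPM, with medians of 6.5 and 121 TPM (3.96 on the log2 scale, SE 0.23, 15.6-fold). The rhd levels of liver were low. Normal livers ran from 0.190 to 1.82 TPM and abnormal livers from 2.92 to 12.4 TPM, which again did not overlap (1.66, SE 0.19, 3.16-fold on a scale that understates changes of low values).

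The genes sptb and ank1a encode beta-spectrin and ankyrin 1, the strand of the membrane skeleton and the anchor that ties it to the membrane. Before transport the spleens held 7.21, 13.3, 8.74 and 9.07 TPM of sptb and 5.26, 6.54, 4.94 and 4.71 TPM of ank1a. At the end of transport they held 10.8, 15.8, 24.9 and 18.7 TPM of sptb and 7.63, 10.2, 9.03 and 17.3 TPM of ank1a. Of the 7 genes ank1a alone lay higher with no overlap, where 12.3% of all genes did. Both hemgn and phospho1 lay lower with none, where 22.6% of all genes did. On day 1 the spleens held 51.4, 53.7, 180 and 949 TPM of sptb and 23.9, 23.2, 67.8 and 390 TPM of ank1a. All 4 libraries lay above those from before transport, but libraries 3 and 4 set the size. The log2 difference was 3.85 for sptb and 3.33 for ank1a with them, and 2.37 and 1.96 without them. Both genes also differed widely between spleens by label. For sptb, normal spleens ran from 2.09 to 26.2 TPM and abnormal spleens from 30.1 to 78.6 TPM (2.62, SE 0.34, 6.13-fold). For ank1a the ranges were 1.22 to 11.4 TPM and 23.4 to 80.2 TPM (3.11, SE 0.33, 8.62-fold). Normal spleens overlapped those from before transport in sptb and ank1a, as in hemgn and rhd, while in hbae5, cahz and phospho1 every normal spleen lay lower.

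In liver, sptb was the only gene of the 7 whose normal libraries (0.400 to 1.25 TPM) and abnormal libraries (0.870 to 4.47 TPM) overlapped, with a difference of 0.71 (SE 0.23). Liver ank1a ran from 0.160 to 0.730 TPM in normal and from 1.02 to 4.10 TPM in abnormal fish (1.06, SE 0.22). Before transport the livers held 0.59, 1.22, 1.81 and 9.83 TPM of sptb and 0.71, 0.91, 1.49 and 8.42 TPM of ank1a. Without the fourth of these, the difference of normal livers from before transport shrank from -0.89 to -0.31 for sptb and from -1.15 to -0.59 for ank1a. Leaving that library out also turned the end of transport from -0.30 to 0.28 for sptb and from -0.38 to 0.18 for ank1a. Day 1 moved from 0.24 to 0.83 for sptb and from -0.07 to 0.48 for ank1a. The difference of abnormal livers from before transport turned from -0.18 to 0.40 for sptb and from -0.09 to 0.47 for ank1a. For the other 5 genes, the difference of normal livers from before transport without it was -4.19 for hbae5 (-3.84 with it), -2.11 for cahz (-2.46), -1.74 for hemgn (-1.84), -1.12 for rhd (-1.03) and -0.49 for phospho1 (-0.61).

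The gene phospho1 encodes a phosphatase of phosphocholine and phosphoethanolamine, best known from mineralising bone and also studied in maturing red cells of mammals. Its mean log level in the day 1 spleen differed from that before transport by -0.16 (SE 0.38), and by 0.32 (SE 0.33) without libraries 3 and 4. Spleens from before transport held 25.7, 24.4, 37.5 and 29.5 TPM, those at the end of transport 9.74, 11.9, 7.06 and 13.2 TPM, and those of day 1 held 54.5, 24.2, 7.10 and 44.6 TPM. Every spleen at the end of transport lay below the level before (-1.41, SE 0.38), and day 1 spread across both. Normal spleens ran from 1.88 to 5.06 TPM, and abnormal spleens from 30.5 to 134 TPM with a median of 69.0 TPM (3.97, SE 0.23, 15.6-fold). In liver the abnormal fish, at 4.01 to 9.23 TPM, lay above every liver from before transport (1.92 to 3.58 TPM), and phospho1 was the only one of the 7 for which that was so. Normal livers ran from 0.500 to 3.29 TPM and the abnormal livers were 1.53 higher on the log2 scale (SE 0.18, 2.88-fold).

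Counted over the set, 7 of 7 genes lay higher in every abnormal than in every normal spleen, where 1.63% of the 17998 genes tested in spleen did so. Day by day the count stayed at 7 of 7, against 4.38% of genes on day 3, 4.48% on day 4 and 7.22% on day 5. In liver 6 of 7 did so over the pooled days, against 9.33% of 15430 genes, and 6, 7 and 6 did so on days 3, 4 and 5, against 19.3%, 27.7% and 25.5%. Compared with before transport, 3 genes in spleen (8.82% of genes) and 4 in liver (15.5%) lay wholly lower in normal fish. In abnormal fish 5 genes in spleen (2.29%) and 1 in liver (0.888%) lay wholly higher, and on day 1 it was 5 in spleen (3.38%) and 0 in liver (7.38%). The end of transport had 1 gene that lay wholly higher (12.3%) and 2 wholly lower (22.6%) in spleen, and 3 wholly lower in liver (7.88%). The comparisons share the libraries from before transport or those of a label. Since the genes were chosen with these values known, nothing is read from these counts.

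The median difference between abnormal and normal fish over the 7 genes was 3.96 in spleen and 1.61 in liver, and over all genes tested it was -0.51 in spleen and 0.09 in liver. The spleen difference exceeded the liver difference for each of the 7 genes, by 1.82 to 2.44 on the log2 scale. Ratios of spleen to liver means for hbae5 followed the same pattern, at 9.74 before transport, 9.34 at the end of transport and 11.3 on day 1, then 5.53 to 15.6 in normal and 23.5 to 46.8 in abnormal fish. The hemgn ratio was 0.954 before transport, 6.72 on day 1, 6.37 to 7.63 in abnormal fish and 0.902 to 2.78 in normal fish. For rhd, sptb, ank1a and phospho1 the normal livers lay near or under 1 TPM, where log2(TPM + 1) understates changes. The scale can therefore widen the log2 gap between the tissues for these genes. Mean ank1a, for example, was 0.339 TPM in normal and 1.94 TPM in abnormal livers, and 3.83 and 40.1 TPM in spleens.

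**Figure D2:**
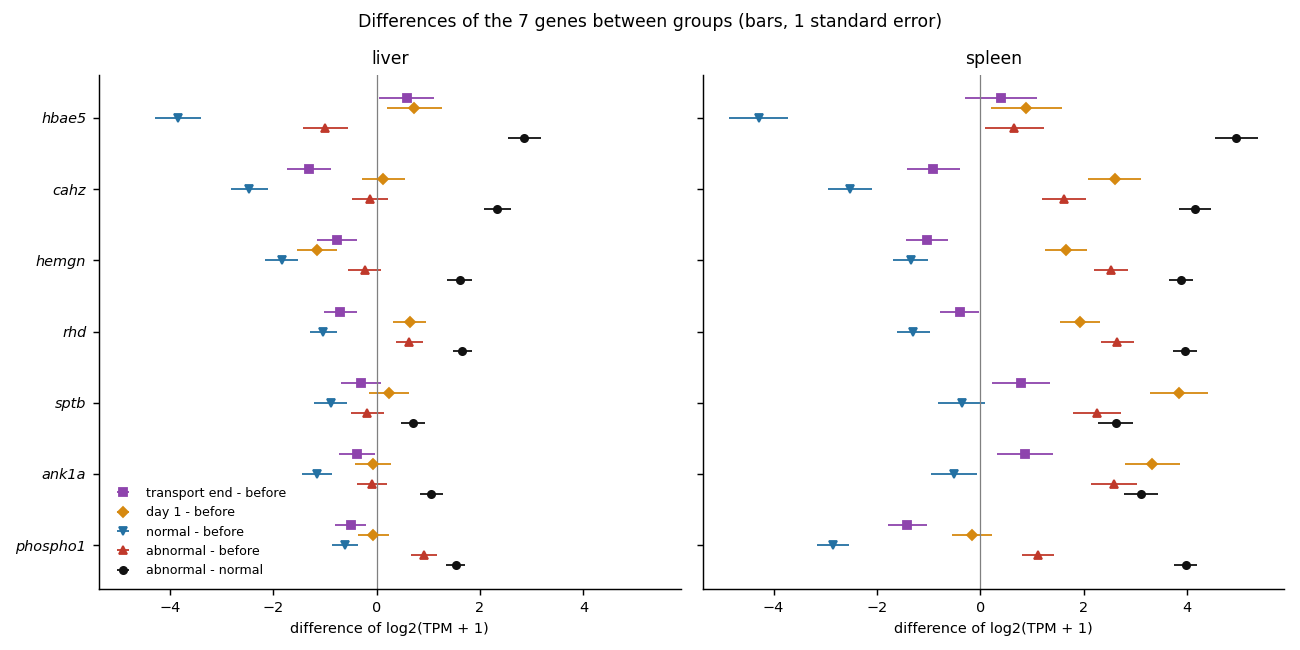
Differences of the 7 genes from the level before transport, and between abnormal and normal fish, as differences of mean log2(TPM + 1) with bars of 1 standard error, in liver and spleen. The spleen differences between abnormal and normal fish run from 2.62 (sptb) to 4.95 (hbae5), and the liver differences from 0.71 to 2.86.

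The 7 genes did not keep a fixed ratio to hbae5. For every 1000 TPM of hbae5, spleens held 3.00 to 4.32 TPM of cahz before transport and 1.09 to 1.60 TPM at its end, with no overlap. Normal spleens held 5.94 to 21.2 TPM and abnormal spleens 3.92 to 12.4 TPM of cahz on that scale, which overlapped each other. The range of hemgn was 0.742 to 1.16 TPM before transport, 0.286 to 0.400 TPM at its end, 2.99 to 13.8 TPM in normal and 1.96 to 9.16 TPM in abnormal spleens, so that both later groups lay above the level before transport. For sptb the normal spleens (1.63 to 5.36 TPM) lay wholly above both the abnormal spleens (0.368 to 1.22 TPM) and those from before transport (0.185 to 0.292 TPM). On day 1 the ratio of cahz was 4.10, 3.76, 26.0 and 36.8 TPM in the 4 spleens, and libraries 3 and 4 were the high pair. Mean hemgn on that scale was 12.9 TPM in livers and 0.992 TPM in spleens before transport. In normal fish its group means were 38.2 to 46.8 TPM in livers and 6.62 to 8.56 TPM in spleens. What part of liver hemgn came from cells other than red cells was not tested. In liver library 4 from before transport, 4.88 TPM of sptb stood against 1000 TPM of hbae5, where the other 3 livers of that group held 0.120 to 0.434 TPM.

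**Figure D3:**
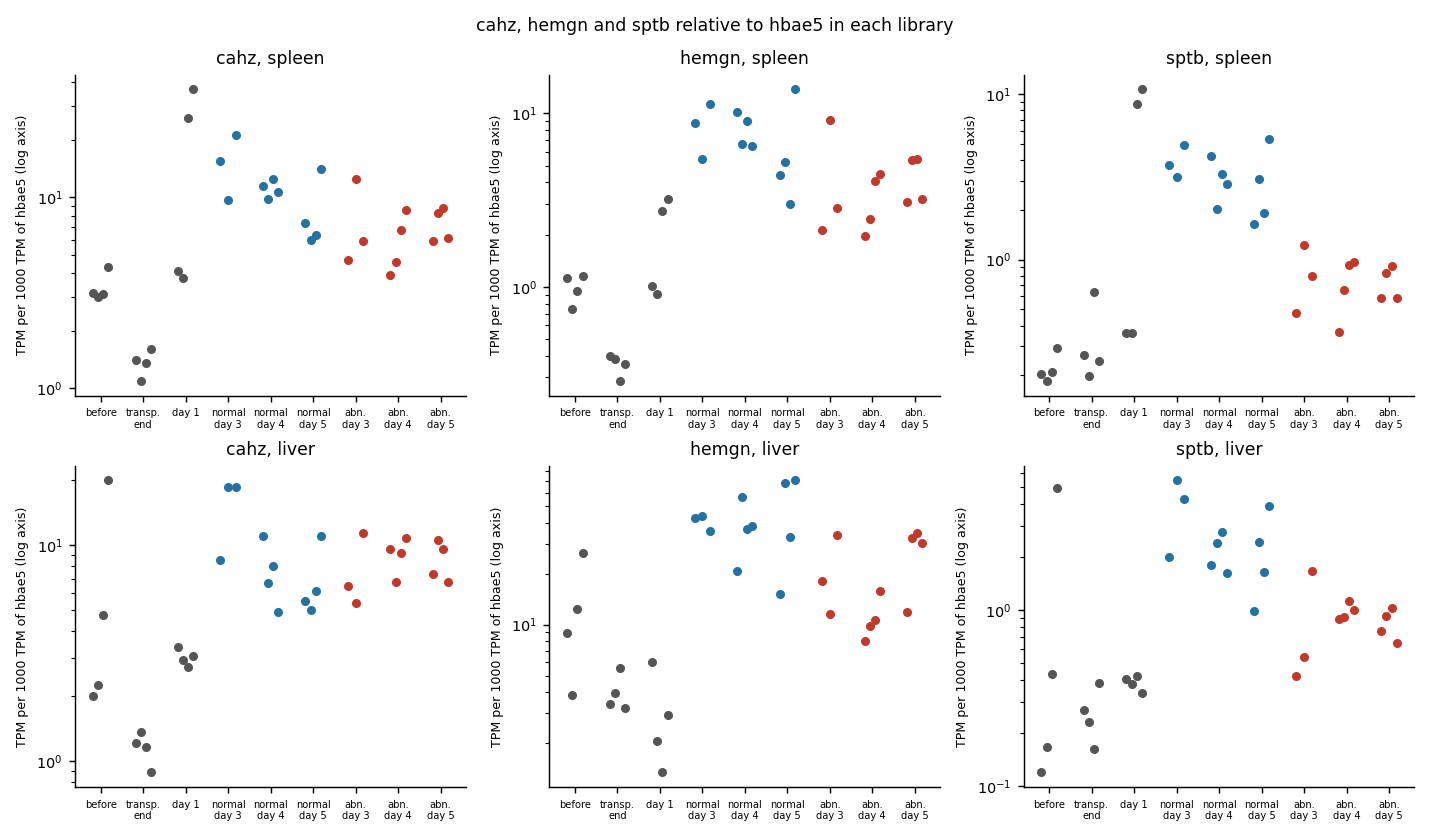
TPM of cahz, hemgn and sptb for every 1000 TPM of hbae5 in each library, on a log axis, by group, in liver and spleen. Spleens at the end of transport lie lowest for cahz (1.09 to 1.60), and normal spleens lie above abnormal spleens without overlap for sptb (1.63 to 5.36 against 0.368 to 1.22).

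The membrane skeleton genes varied closely together. Over the 34 libraries of a tissue, the correlation of log levels of sptb and ank1a was 0.94 in liver and 0.97 in spleen, and after removal of the group means it was 0.96 and 0.95. In spleen hemgn and rhd were as close (0.98, or 0.86 within groups). The weakest pair in liver was hbae5 and phospho1 (0.29, or -0.10 within groups), and in spleen sptb and phospho1 (0.64, or 0.05 within groups). Values of a library share its TPM scaling, so these are descriptions. The ratio of sptb to ank1a stayed between 0.981 and 2.76 in all spleen libraries while the level of sptb ranged from 2.09 to 949 TPM.

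Other genes of red cells, 60 in number, were measured as lists for haem synthesis, erythroid transcription factors, the membrane and its skeleton, iron uptake with the erythropoietin receptor, and enzymes and maturation. The lists were chosen with earlier results of these data known, so their counts are no independent check. Before transport epor, gata1a, klf1, alas2 and slc4a1a had higher means in spleen than in liver, as hbae5 did. Other listed genes did not, such as tfr1a (85.9 TPM in liver, 24.7 TPM in spleen) and cat (271 and 52.9 TPM). How much of the liver level of the 7 genes and of the listed genes came from cells other than red cells was not tested. Of the 59 tested in spleen, 31 rose and 14 fell in abnormal against normal fish (limma, adjusted p below 0.05), where 7.75% of all genes rose and 54.2% fell. The median of all genes in this comparison lay at -0.51, and with levels rescaled by the median of ratios, which set it to 0.01, the count became 43 rises and 5 falls. In liver, 24 of 54 rose and 5 fell, where 29.1% of all genes rose and 21.3% fell, and after rescaling 23 rose and 13 fell.

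Among transcription factors of red cell formation, 10 of 14 rose and 1 fell in the abnormal spleen, and 5 of 11 rose with 0 falls in liver (13 and 0 in spleen and 5 and 2 in liver after median-of-ratios rescaling). The factor gata1a, the master regulator of the lineage, stood at 84.5 ± 23.8 TPM in abnormal and 14.4 ± 10.4 TPM in normal spleens (SD, n = 11 each, log2 difference 2.58, limma adjusted p = 3.91e-11). The factor klf1, which switches on adult globin genes in mammals, stood at 20.5 ± 5.65 and 3.06 ± 1.86 TPM (2.41, limma adjusted p = 6.2e-09). In liver both were scarce, with means of 2.65 and 1.30 TPM for gata1a and 0.938 and 0.249 TPM for klf1, and both rose by less, 0.59 and 0.58 (limma adjusted p = 0.00931 and 0.00249). The tissue difference was itself past the threshold for both, 1.99 for gata1a and 1.84 for klf1 (limma interaction, adjusted p = 6.15e-08 and 1.53e-06). Changes at such low liver levels are understated on the log2(TPM + 1) scale, which can widen these tissue differences.

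Erythropoietin drives red cell production through its receptor, epor. On the log2(TPM + 1) scale, which understates changes of low genes, epor rose more than any other of the 59 genes between normal and abnormal spleens. Normal spleens held 2.14 to 30.7 TPM of epor and abnormal spleens 59.4 to 183 TPM, with no overlap (means 9.0 ± 7.99 and 105 ± 34 TPM, 3.54, SE 0.27, limma adjusted p = 6.26e-12). In the same list the transferrin receptor tfr1a, which brings iron into the cell, rose only from 28.9 ± 12.6 to 52.3 ± 12.0 TPM (0.86, limma adjusted p = 0.000393). In liver the order was the other way round. There tfr1a rose from 9.83 ± 6.48 TPM in normal to 175 ± 56.8 TPM in abnormal fish (4.10, SE 0.34, limma adjusted p = 3.25e-11), and epor from 0.929 ± 0.384 to 4.56 ± 2.09 TPM (1.43, limma adjusted p = 2.76e-06). The tissues differed in both, by 2.11 toward spleen for epor and by 3.24 toward liver for tfr1a (interaction of -3.24, limma adjusted p = 1.26e-09, and 1.23e-06 for epor). The liver change of epor, at a low level, is understated on the log2(TPM + 1) scale, which can widen its tissue difference. The list as a whole had 3 rises and 3 falls among 7 genes in spleen (4 and 2 after rescaling) and 5 rises and 1 fall among 8 in liver.

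The haem synthesis list depended on the scaling in spleen. As deposited, 5 of 14 genes rose and 4 fell in abnormal against normal fish, and after median-of-ratios rescaling 11 rose and 1 fell. Among the rises was alas2, the red cell form of the first enzyme of the pathway, at 568 ± 213 against 131 ± 111 TPM (2.40, limma adjusted p = 1.23e-07). In liver 2 of 13 rose and 4 fell (2 and 6 after rescaling). The rises held alas2 at 23.1 against 12.6 TPM (0.84, limma adjusted p = 0.00642), and the falls held tmem14ca, a mitochondrial carrier of haem precursors in mammals, at 15.4 against 24.4 TPM (-0.62, limma adjusted p = 0.0142).

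In the membrane list 6 of 10 genes rose and 2 fell in the abnormal spleen (7 and 0 after rescaling), and 5 of 9 rose with 0 falls in liver (5 and 2). The anion exchanger slc4a1a, known as band 3, stood at 188 ± 110 against 32.4 ± 21.3 TPM in spleen (2.68, limma adjusted p = 5.4e-07) and at 6.51 against 2.86 TPM in liver (0.95, limma adjusted p = 0.00298). The tetraspanin tspan33a, known in mice for its part in red cell formation, stood at 21.4 ± 5.21 against 4.64 ± 1.53 TPM in liver (1.99, limma adjusted p = 1.94e-08). In spleen its level was low and went the other way, at 1.55 ± 0.587 TPM in abnormal against 2.85 ± 0.983 TPM in normal fish. Before transport it stood at 29.6 TPM in liver and 2.16 TPM in spleen.

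Among enzymes and maturation genes 7 of 14 rose and 4 fell in the abnormal spleen (8 and 2 after rescaling), and 7 of 13 rose with 0 falls in liver (6 and 2). The transporter gene slc43a3a rose in spleen from 1.04 ± 0.704 to 12.8 ± 5.49 TPM (2.70, limma adjusted p = 1.68e-10), and cat, which encodes the peroxide-splitting catalase, rose in liver from 62.2 ± 15.6 to 218 ± 21.7 TPM (1.83, limma adjusted p = 9.49e-10). Against these, gpx1b, a glutathione peroxidase, fell in the abnormal spleen from 135 ± 44.0 to 43.6 ± 24.5 TPM (-1.72, limma adjusted p = 2.49e-07). The kinase gene riok3 fell there too, from 33.9 ± 3.37 to 15.3 ± 3.17 TPM (-1.13, limma adjusted p = 5.18e-07). So did snx3 of the haem synthesis list, from 141 ± 23.4 to 58.3 ± 12.6 TPM (-1.26, limma adjusted p = 8.05e-09). It encodes a sorting nexin that recycles transferrin receptors in mice. In this comparison 54.2% of all genes tested in spleen fell, and the median of all genes lay at -0.51. Catalase is also a major enzyme of hepatocytes, and 15 of the 21 hepatocyte genes rose and 5 fell in abnormal against normal livers. Their part in the result was not tested.

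**Figure D4:**
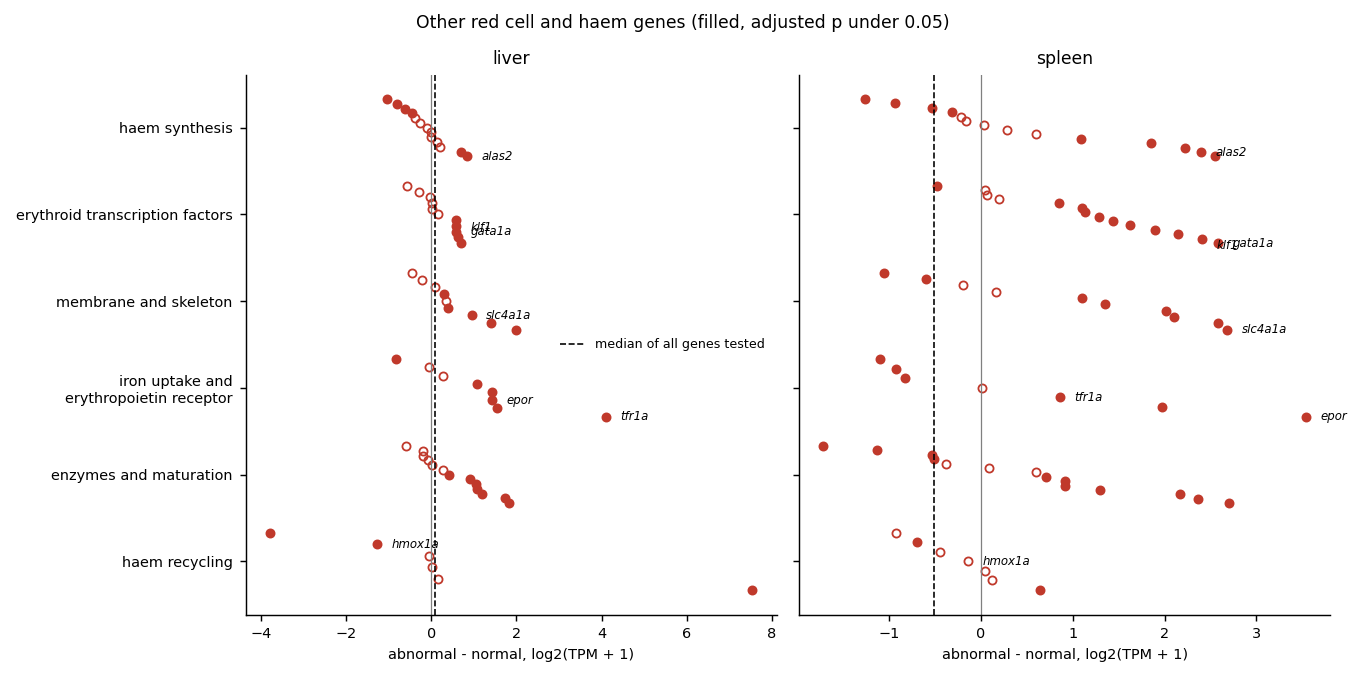
Difference between abnormal and normal fish in log2(TPM + 1) for each measured gene of 5 red cell lists and the haem recycling list, in liver and spleen, 1 circle per gene, filled where the limma adjusted p is below 0.05. The dashed line is the median of all genes tested, 0.09 in liver and -0.51 in spleen; epor lies farthest right in spleen at 3.54, and tfr1a reaches 4.10 in liver.

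The other red cell genes were also measured against the level before transport. In normal livers 21 of 54 fell and 4 rose, a share of falls (38.9%) close to that of all genes, of which 34.7% fell and 16.9% rose; after median-of-ratios rescaling it was 20 falls and 11 rises. Among the falls were tfr1a, from 85.9 ± 63.8 to 9.83 TPM (-2.95, limma adjusted p = 5.7e-06), slc4a1a, from 14.6 to 2.86 TPM (-1.98, limma adjusted p = 3.4e-05), and epor, from 5.25 to 0.929 TPM (-1.54, limma adjusted p = 8.77e-05). Catalase (-2.04) and tspan33a (-2.38) fell as well, with limma adjusted p = 7.68e-08 and 3.09e-07. All 5 falls passed without liver library 4 from before transport as well, at -2.52 for tfr1a, -1.68 for slc4a1a, -1.29 for epor, -1.73 for cat and -2.08 for tspan33a. Membrane genes supplied 7 of the 21 falls out of 9 genes tested, and iron uptake genes 6 of 8. Transcription factors supplied 3 falls among 11 genes, enzymes and maturation genes 4 among 13, and haem synthesis genes 1 among 13. Haem synthesis genes gave 3 of the rises and iron uptake genes 1.

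In normal spleens 14 of 59 fell and 7 rose, where 10.6% of all genes fell and 21.5% rose; with rescaling 21 fell and 7 rose. The falls held slc4a1a at 32.4 against 109 ± 48.9 TPM (-1.95, limma adjusted p = 0.004), the progenitor factor myb at 9.65 against 31.3 TPM (-1.62, limma adjusted p = 2.72e-05) and tmod4, a tropomodulin that caps actin, at 43.1 against 128 TPM (-1.57, limma adjusted p = 8.69e-06). Levels of gata1a (-0.32, limma adjusted p = 0.426), epor (-0.89, 0.0601) and alas2 (-0.99, 0.0693) did not pass the test. The peroxidase gpx1b rose from 37.0 to 135 TPM (1.87, limma adjusted p = 3.55e-05).

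In abnormal spleens 22 of 59 rose and 5 fell against before transport, where 3.41% of all genes rose and 25.2% fell. Here epor rose from 15.7 ± 6.26 to 105 TPM (2.65, limma adjusted p = 5.88e-06), gata1a from 16.3 ± 2.22 to 84.5 TPM (2.26, limma adjusted p = 2.65e-06) and rfesd, which encodes an iron-sulfur protein, from 10.7 ± 4.29 to 73.0 ± 24.1 TPM (2.67, limma adjusted p = 0.000637). Levels of alas2 rose as well, by 1.41 (limma adjusted p = 0.0123), while slc4a1a, at 0.73, did not pass (limma adjusted p = 0.294). The myb level fell here as it did in normal spleens (-1.58, limma adjusted p = 8.08e-05). In abnormal livers 1 of 54 rose and 1 fell, where 2.62% of all genes rose and 6.66% fell. The rise was that of gpx1a, a call lost without liver library 4 from before transport (0.59, limma adjusted p = 0.103).

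After 1 day of recovery 27 of 59 genes rose in the spleen and 2 fell, where 4.17% of all genes rose and 15.9% fell, and 25 rose and 3 fell without libraries 3 and 4. The group was uneven, with alas2 at 1480 ± 1120 TPM against 207 ± 55.0 before transport (2.60, limma adjusted p = 0.000934) and tfr1a at 148 ± 114 against 24.7 TPM (2.29, limma adjusted p = 2.82e-05). Other rises were slc25a37, the mitochondrial iron importer of red cells (2.52, limma adjusted p = 0.00013), epor (2.55, 0.000291), gata1a (2.09, 0.000234) and klf1 (2.21, 0.000905). Without libraries 3 and 4 the differences were 2.42 for alas2, 1.60 for tfr1a, 2.17 for slc25a37, 1.97 for epor, 2.11 for gata1a and 1.67 for klf1, all still past the threshold. The rise of slc4a1a, by 2.49 (limma adjusted p = 0.00541), was lost without those libraries (1.90, limma adjusted p = 0.0693). In the day 1 liver 4 of 54 rose and 6 fell, where 9.99% of all genes rose and 17.3% fell, and rescaling gave 9 rises and 8 falls. In liver the signal transducer stat5a rose from 9.06 to 22.7 TPM (1.48, limma adjusted p = 0.00271) and tspan33a fell from 29.6 to 9.40 TPM (-1.69, limma adjusted p = 0.00176). Without the other groups in the fit, 8 of the 59 spleen genes passed over both directions, against 29 with them. In that setting klf1 in spleen (limma adjusted p = 0.0773) and stat5a (0.138) and tspan33a (0.126) in liver no longer passed. Of the 54 liver genes 0 passed, with 4 at an unadjusted p under 0.05.

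By the end of transport 4 of the listed genes had risen and 1 had fallen in spleen, and 4 had risen and 2 had fallen in liver, where 5.23% and 2.96% of all genes rose and 6.98% and 9.27% fell. The spleen count depended on the setting, with 12 rises and 5 falls after median-of-ratios rescaling and 10 rises and 12 falls with only the compared groups in the fit. In spleen epor rose from 15.7 ± 6.26 to 41.5 ± 19.6 TPM (1.32, limma adjusted p = 0.0444), a call that was lost when any of 6 single libraries was left out. In liver snx3 rose from 30.5 to 67.6 TPM (1.13, limma adjusted p = 0.000528) and abcb6a, a porphyrin transporter, from 3.24 to 8.35 TPM (1.21, limma adjusted p = 0.00426). Both calls were lost when the other groups were left out of the fit (0.0538 and 0.154).

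The tissues were also compared directly. Between abnormal and normal fish the difference in spleen minus the difference in liver was above 0 and past the threshold in 24 of the 60 listed genes and below 0 and past it in 14 (limma interaction), where it was so in 6.74% and 47.4% of all genes, and with rescaling it was 36 and 8. At the end of transport 1 gene passed each way, where 4.43% and 2.06% of all genes did. Changes of genes with low liver levels are understated on the log2(TPM + 1) scale in these comparisons.

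The enzyme that breaks haem down, encoded by hmox1a, went its own way. In liver it fell from 9.95 ± 4.96 TPM in normal to 3.47 ± 1.14 TPM in abnormal fish (-1.26, limma adjusted p = 2.28e-05), and the normal level was itself above the 1.18 ± 0.696 TPM from before transport (2.27, limma adjusted p = 4.55e-07). In spleen its means of 711 TPM in normal and 640 TPM in abnormal fish did not differ past the threshold (-0.14, limma adjusted p = 0.734), and the 2 tissues differed by 1.12 (limma interaction, adjusted p = 0.0195). In spleen hmox1a fell by the end of transport to 123 ± 38.8 from 656 ± 796 TPM (-1.81, limma adjusted p = 0.0301), where 1 library from before transport held 1847 TPM; without it the difference was -1.09 (limma adjusted p = 0.184). The call was also lost without library 1, 3 or 4 of the end of transport (limma adjusted p = 0.0631, 0.056 and 0.0927) and with only the compared groups in the fit (0.0641).

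Genes were also ranked by how closely they tracked the mean standardised log level of the 7 genes, over 34 libraries of each tissue, taking the smaller of the liver and spleen correlations. Of the 5355 genes with a symbol compared in both tissues, the closest were si:dkey-93h22.7 (0.92 in liver, 0.95 in spleen), tmod4 (0.91, 0.95), jak2a (0.91, 0.94), paplnb (0.90, 0.95) and epor (0.90, 0.96), followed by prr5a, zgc:158403, rgl2, ulk1b and klf17. The kinase encoded by jak2a relays signals from cytokine receptors. In liver alone the closest gene was blvrb, a biliverdin reductase (0.94, and 0.71 in spleen). In spleen alone it was si:ch73-204p21.2 (0.98, and 0.03 in liver), and the thrombocyte marker gp9 was among the closest there (0.97). These are descriptions over libraries that share groups.

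Marker genes of other cell types were counted in the same way, beside the 7.75% of all genes that rose and the 54.2% that fell in abnormal against normal spleens. In spleen 6 of 8 thrombocyte markers rose and 1 fell in abnormal against normal fish, and their sum ran from 677 to 1664 TPM in abnormal, 107 to 385 TPM in normal and 595 to 864 TPM in spleens from before transport. Macrophage markers went the other way, with 7 of 8 lower and 1 higher, at 401 to 1818 against 2153 to 3793 TPM. All 6 neutrophil markers fell, from 797 to 2218 TPM in normal to 144 to 1130 TPM in abnormal spleens, where spleens from before transport held 150 to 240 TPM. Of 19 cell cycle genes 18 fell, from 269 to 627 TPM to 42.4 to 270 TPM. Endothelial and stromal genes gave 5 rises and 12 falls among 19, a share of falls near that of all genes, at 355 to 1700 TPM in abnormal, 848 to 1210 TPM in normal and 2513 to 3612 TPM in spleens from before transport. After median-of-ratios rescaling these 5 lists kept more changes in the direction given, with neutrophil markers at 5 falls and cell cycle genes at 16 falls and 1 rise. T cell markers turned, from 1 rise and 5 falls among 10, again near that share, to 5 rises and 0 falls, and B cell markers went from 3 rises and 1 fall among 8 to 6 and 0. Of 21 hepatocyte genes 3 fell and 0 rose in abnormal spleens, with sums of 209 to 5325 TPM against 2345 to 6156 TPM in normal spleens. No marker of these lists was at 0 in all spleen libraries of a group. In liver, where 29.1% of all genes rose and 21.3% fell, 7 of 8 thrombocyte markers rose and 1 fell, at 10.6 to 35.7 TPM in abnormal against 5.55 to 20.4 TPM in normal fish. There 6 of 8 T cell markers rose with 0 falls (9.01 to 20.5 against 3.52 to 9.33 TPM), as did 3 of 6 B cell markers (14.6 to 44.8 against 8.67 to 20.3 TPM). Endothelial and stromal genes of the liver gave 7 rises and 3 falls among 18 (145 to 348 against 52.7 to 102 TPM), and cell cycle genes 0 rises and 7 falls among 16 (12.4 to 25.7 against 22.1 to 37.9 TPM). Macrophage markers gave 1 rise and 3 falls among 7 (26.3 to 110 against 64.5 to 159 TPM), with 1 marker at 0 in all normal livers, and neutrophil markers 0 rises and 2 falls among 6 (16.6 to 61.6 against 32.3 to 102 TPM). The part of these cell types in the red cell results was not tested.

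**Figure D5:**
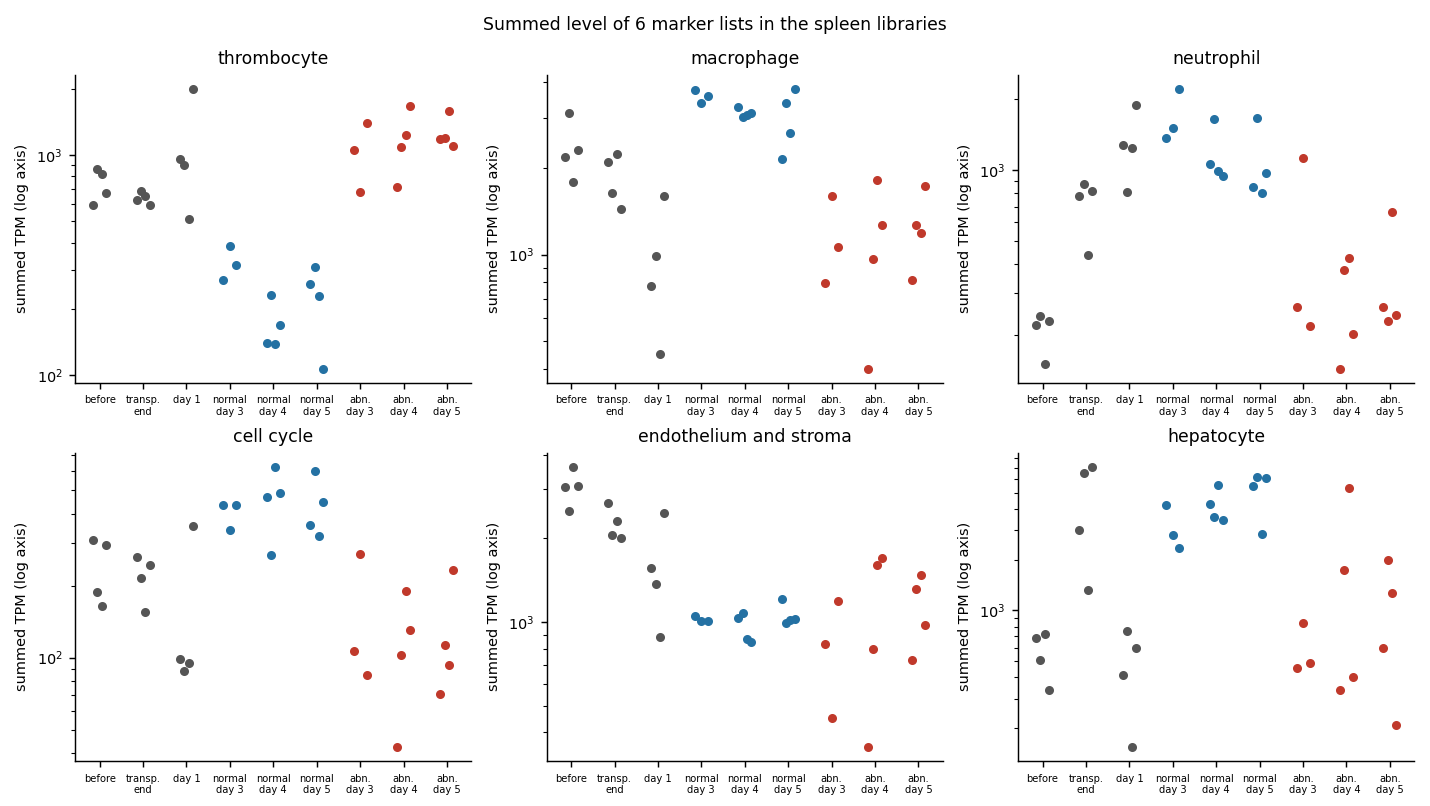
Summed TPM of 6 marker lists in each spleen library on a log axis, by group. Thrombocyte sums are higher in abnormal (677 to 1664) than in normal spleens (107 to 385), and neutrophil sums are lower (144 to 1130 against 797 to 2218).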

How the data were processed

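Total RNA of liver and spleen was depleted of ribosomal RNA and made into strand-marking libraries, per the labels' protocols. The authors deposited TPM values per gene in 1 table of 18666 genes and 68 libraries, and fastp 0.23.2 and Salmon 1.10.0 are named in the submitters' processing notes. The genome build is not given in the sources used here, and neither is the annotation. Each library summed to 995833.1 to 999253.8 TPM, and no gene had fewer than 3 libraries at 1 TPM or more. TPM keeps no read depth, so depth is unknown and no counting error is given. Libraries are numbered as replicates within a group, and their titles do not say whether each came from a separate fish.

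Here log2(TPM + 1) was fitted with limma 3.58.1 (R 4.3.3) in each tissue, with a mean for each of 9 groups over 34 libraries, a trend in the prior variance and Benjamini-Hochberg adjustment over all genes that 3 or more libraries of that tissue held at 1 TPM (15430 in liver, 17998 in spleen). Differences for days 3 to 5 average the days of a label. A joint fit over 68 libraries tested whether the tissues differed. It took all libraries as independent, so a liver and a spleen of the same fish, if any, were not paired. Fold changes are on the log2(TPM + 1) scale, which understates changes of low genes. The fit was also run on simulated data, with independent, normally spread values and the same spread of a gene in all groups. Groups of the real data differed in spread, so nothing is read from that run.

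The 7 genes and all gene lists were chosen with earlier results of these data known. No other haemoglobin symbol of the 14 listed was in the table. A further 8139 genes carry only a locus number, and other haemoglobin genes may be among them. In spleen LOC119891502 had a higher mean than hbae5 (53440 TPM), and its log level correlated with that of hbae5 at 0.75. For LOC119915756 (24779 TPM) the correlation was 1.0. These loci were singled out after their values were seen, and what they encode was not established here. Named genes are alas2, slc4a1a, epor, gata1a, klf1, tfr1a and hmox1a throughout, and in each comparison were drawn from up to 3 rises and 3 falls with the largest difference past the threshold of 0.05 where the group with the higher mean reached 5 TPM. Other genes that the rule named are not analysed here. Alternatives were another pseudocount, another filter, 3 rescalings, a replicate block, a fit of the compared groups only, and leaving out libraries. The labels do not say whether a shared number ties libraries of different groups together.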

Additional observations from a re-analysis of the deposited data

Results flagged for a closer look

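Single libraries stood far from the rest of their group in 12 of 98 combinations of a red cell gene, a tissue and a group of 4. The rule has a nominal chance rate of 1 in 20, which assumes independent and normally spread values. The genes share libraries, and sptb and ank1a varied closely together, so the count is not read against that rate. Spleen library 4 of day 1 was high in cahz (3269 TPM), sptb (949 TPM) and ank1a (390 TPM), and spleen library 1 of abnormal day 5 in cahz (797 TPM) and sptb (78.6 TPM). Liver library 4 from before transport was high in sptb (9.83 TPM) and ank1a (8.42 TPM). Liver library 2 of day 1 was high in rhd (11.2 TPM) and ank1a (4.91 TPM), liver library 1 of abnormal day 4 in cahz (48.4 TPM), and liver library 1 of the end of transport in ank1a (2.17 TPM). Liver library 3 of normal day 4 was low in rhd (0.270 TPM).

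The liver and spleen differed in their response for 7 genes named above, by a test of the difference itself (limma, spleen minus liver). Changes at low liver levels, as for epor, gata1a and klf1, are understated on the log2(TPM + 1) scale, which can widen such differences. Between abnormal and normal fish the difference was 2.11 for epor, 1.99 for gata1a, 1.84 for klf1, 1.73 for slc4a1a, 1.55 for alas2, 1.12 for hmox1a and -3.24 for tfr1a, with adjusted p of 0.00161 for slc4a1a and 0.00108 for alas2. At the end of transport it was -2.09 for hmox1a, at an adjusted p of 0.0498. That call was lost in 16 of 24 alternatives, 11 of them with 1 library left out, at adjusted p of 0.0507 to 0.22, and over all 24 the adjusted p ran from 0.0131 to 0.22.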

How the results depend on the processing

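Of 634 differences of the 7 genes under other settings, 602 moved by less than 1 SD within groups and 32 by more. All 1372 values with 1 library left out moved by less, but nothing is read from that. The SD includes the library left out, and a single library cannot move a group mean that far. Some of these values still changed sign, as for sptb and ank1a in liver at the end of transport.

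Counts of other red cell genes past the threshold depended on the setting where they were small. Against before transport, the counts over both directions were 6 at the end of transport, 10 on day 1 and 2 in abnormal fish in liver. With median-of-ratios rescaling they were 12, 17 (9 up, 8 down, a turned balance) and 7, and with only the compared groups 0 each (limma, with 10, 4 and 11 at an unadjusted p under 0.05). The liver count for abnormal fish was 1 with a pseudocount of 0.1, with a filter of 5 TPM and with the replicate block. The 5 calls at the end of transport in spleen became 2, 3, 17, 8 and 22 with a pseudocount of 0.1, a 5 TPM filter, rescaling by the median of ratios, rescaling without the 10 most abundant genes and only the compared groups (10 up, 12 down). With only the compared groups the spleen counts were 8 on day 1 (29 before) and 32 in normal fish (21 before). The tissue difference at the end of transport gave 4 calls with median-of-ratios rescaling instead of 2.

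With 1 library left out, liver counts ran from 3 to 11 at the end of transport, 5 to 14 on day 1, 24 to 27 in normal fish, 1 to 9 in abnormal fish and 28 to 33 between labels. Spleen counts ran from 0 to 5, 24 to 32, 15 to 23, 21 to 29 and 42 to 45, and tissue differences from 0 to 3 and 36 to 39. The counts of 0 had 11 genes in spleen and 9 in the tissue difference at an unadjusted p under 0.05 (limma). The balance turned in liver at the end of transport without library 1 (11 calls) or 2 (8 calls) from before transport or library 1 of the end of transport (8 calls), and on day 1 without library 4 from before transport (7 calls) or library 3 of day 1 (5 calls).

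Same-numbered libraries of different groups within a tissue had correlations of their deviations from -0.19 to 0.26. Libraries of different number were not set beside them, so whether the numbers pair libraries is not known. The replicate block moved no other count by over 1.5 times. The cause of these changes was not tested. Depth is unknown, and groups of 3 or 4 limit the precision.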

Other observations

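Haemopexin, which binds free haem in plasma, was split between its copies in liver; hpxa and hpxb were singled out after their values were seen. Normal livers held 9.42 to 248 TPM of hpxa, abnormal livers 3377 to 12949 TPM and livers from before transport 12808 to 16600 TPM (abnormal minus normal 7.54, limma adjusted p = 9.85e-16). The copy hpxb was the reverse, at 11685 to 19156 TPM in normal and 448 to 4650 TPM in abnormal livers (-3.79, limma adjusted p = 4.59e-15). How alike hpxa and hpxb are in sequence was not examined, so whether the counting divided reads between them is not known.

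For hbae5, the deviations of same-numbered liver and spleen libraries from their group means correlated at 0.44 over 34 pairs. For the other 6 genes the correlations ran from -0.08 to 0.31, and the labels do not say whether such libraries came from the same fish.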
